A study of Mus musculus with 6 samples.

Results

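Enzymes that turn arachidonate into leukotrienes and prostaglandins were followed in hematopoietic stem cells (HSC) of mice with and without P-selectin. The 10 genes were taken by name, with earlier results of these data known: Alox5, Alox5ap, Alox12, Alox15, Lta4h and Ltc4s of the lipoxygenase branch, and Ptgs1, Ptgs2, Ptges and Hpgds of the prostaglandin branch. Each of 9 genes had 1 probe set, which gives 9 of the 28815 probe sets on the array, 6 in the lipoxygenase branch and 3 in the prostaglandin branch. No probe set carried the symbol Ptgs1, the constitutive cyclooxygenase, in the annotation used, and that gene was not analysed here.

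RNA came from HSC of wild-type (WT) C57BL/6 mice and of C57BL/6 mice lacking the adhesion receptor P-selectin (genotype SELP -/- in the labels, written Selp-/- here), with 3 arrays per genotype numbered 1 to 3. The labels do not say what the number stands for, how the cells were sorted, how old the animals were, or whether each array had its own animal. The p-values therefore measure the spread between these arrays, which may be technical. A level is the log2 of the background-corrected, quantile-normalized intensity of a probe set, and levels are set side by side only within a probe set.

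Arachidonate is a fatty acid held in membrane phospholipids and freed by phospholipases. In the lipoxygenase branch, 5-lipoxygenase (Alox5) works with its activating protein (Alox5ap) to make leukotriene A4, which Lta4h turns into leukotriene B4, an attractant of neutrophils, and Ltc4s into leukotriene C4, the parent of the cysteinyl leukotrienes. In the prostaglandin branch, the cyclooxygenases make prostaglandin H2, which Ptges turns into prostaglandin E2, a lipid known to act on HSC, and Hpgds into prostaglandin D2. In bone marrow these enzymes are best known from granulocytes, mast cells, macrophages and platelets.

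The arrays numbered 3 of both genotypes stood apart from the other 4 in stem cell and myeloid genes, and the results below rest on that contrast, so it is given before them. Of 15 probe sets of a stem and early progenitor list, 0 were higher in mean in the arrays numbered 3. Of the 14 tested ones, limma called 11 lower and 0 higher in the arrays numbered 3, against 11.7% and 9.13% of all 17289 tested probe sets. The intensities of that list summed to between 11932 and 12871.5 there, against 25888 to 31981 in the other 4 arrays. The stem cell factor Hlf lay close to the level of 8.79 under which probe sets were left out of testing, at 8.88 in WT 3 and 8.81 in Selp-/- 3, and ran from 12.13 to 12.53 in the other 4 arrays. Median intensities per array ran from 563 to 751. No probe set was named Selp, so the missing gene itself was not measured here.

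Promoter sequences are shown for 4 of the enzymes as examples: Alox5, which had the largest difference by array number, Ptges, whose genotypes did not overlap, and Ptgs2 and Hpgds, the other measured enzymes of the prostaglandin branch. They are the 250 bases before the gene's start, 5′ to 3′ on the gene's strand, from RefSeq on GRCm38.p6. The set of promoters used held 8 of the 10 genes, and Alox5ap and Alox15 had no entry in it. Capitals mark matches to the motifs searched.
Alox5 (chr6:116461179-116461428, minus strand): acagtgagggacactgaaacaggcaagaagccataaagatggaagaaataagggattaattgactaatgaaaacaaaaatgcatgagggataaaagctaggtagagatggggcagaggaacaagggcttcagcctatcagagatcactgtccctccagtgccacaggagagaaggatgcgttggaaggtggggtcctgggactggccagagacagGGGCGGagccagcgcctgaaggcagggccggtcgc
Hpgds (chr6:65144731-65144980, minus strand): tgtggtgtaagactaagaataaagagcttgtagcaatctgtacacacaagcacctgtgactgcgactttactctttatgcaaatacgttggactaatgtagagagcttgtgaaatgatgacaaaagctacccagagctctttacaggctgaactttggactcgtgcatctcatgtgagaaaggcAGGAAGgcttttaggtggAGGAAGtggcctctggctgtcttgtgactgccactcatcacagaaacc
Ptgs2 (chr1:150099781-150100030, plus strand): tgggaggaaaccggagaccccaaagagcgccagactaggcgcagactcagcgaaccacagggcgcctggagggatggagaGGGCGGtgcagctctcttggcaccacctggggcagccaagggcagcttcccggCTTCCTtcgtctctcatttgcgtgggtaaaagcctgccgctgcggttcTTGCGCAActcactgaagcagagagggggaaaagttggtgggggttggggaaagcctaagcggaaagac
Ptges (chr2:30903298-30903547, minus strand): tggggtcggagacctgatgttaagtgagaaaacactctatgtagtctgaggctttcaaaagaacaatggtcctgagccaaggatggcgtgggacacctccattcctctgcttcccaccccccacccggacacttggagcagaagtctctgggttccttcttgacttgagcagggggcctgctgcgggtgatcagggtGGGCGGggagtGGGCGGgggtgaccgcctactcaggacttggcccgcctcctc

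Both strands were searched for 5 motifs, and no match overlapped another. The GC box, GGGCGG, stood in the promoters of Alox5, Alox12, Ptgs2 and Ptges, 4 of 8, and in 32.7% of the 32851 promoters of that length. Counted from the gene's start, it lay at -35 to -30 in Alox5, and Ptges held a pair at -53 to -48 and -42 to -37. In Ptgs2 it lay at -170 to -165. AGGAAG, a core of ETS factors such as PU.1, also stood in 4 of 8, Ltc4s, Ptgs1, Ptgs2 and Hpgds, against 29.5% of all promoters. Hpgds held a pair of these, at -66 to -61 and -48 to -43. Ptgs2 was the 1 of the 8 to hold TTGCGCAA, a site of C/EBP factors, at -69 to -62, which stood in 0.164% of all promoters. The GATA motif AGATAA, found in 9.99% of all promoters, had 0 matches in the 8. The core of CREB sites, TGACG, found in 17.8%, had 0 as well. These matches describe letters and not bound sites.

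Which of the enzymes differed by array number was asked with limma's F test of the number. It called 4 of the 7 members that passed the filter on low levels, Alox5, Alox5ap, Lta4h and Hpgds, against 12.8% of all 17289 tested probe sets. In the contrast of number 3 with numbers 1 and 2, limma called 5 of the 7 higher and 0 lower, the same 4 and Ltc4s, where 9.13% of all tested probe sets were called higher and 11.7% lower, or 20.8% in either direction. Both arrays numbered 3 lay above the other 4 for these 5 of 7 members, where 20.1% of tested probe sets did, and below them for 0 of 7, where 25.1% did. Of the 7, Hpgds passed the filter only through the arrays numbered 3, since its mean over the other 4 arrays was 8.65. Of the other 6, 4 were called. Without the filter 7 of all 9 members were called higher, where 5.13% of all 28815 probe sets were. Without WT 3 the F test called 2 members and the contrast 3. The median difference over all tested probe sets was -0.013 on the log2 scale. The contrast was chosen with earlier results of these data known.

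**Figure D1:**
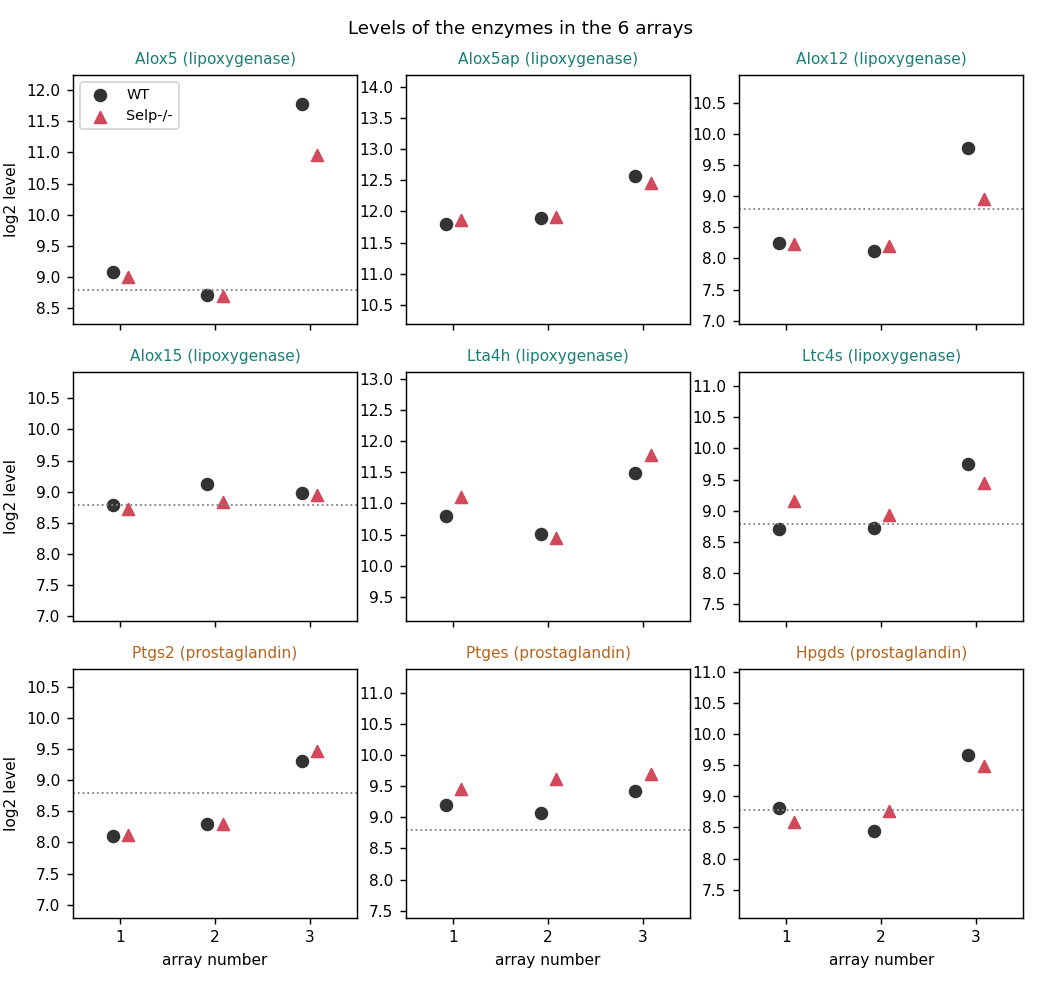
Log2 level of each enzyme (vertical axis, the same span in every panel) against array number (horizontal axis), with WT as circles and Selp-/- as triangles; the dotted line is the filter level of 8.79. Alox5 lies between 8.70 and 9.07 in 4 arrays and at 11.78 and 10.95 in the arrays numbered 3, while Alox15 and Ptges show no such step.

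Alox5, which starts leukotriene synthesis, had the largest difference by number among the members. Its level was 9.07, 8.71 and 11.78 in WT 1, 2 and 3, and 9.0, 8.70 and 10.95 in Selp-/- 1, 2 and 3. The deposited intensities were 629.5, 459 and 4183.5 in the WT arrays, against 662, 517.5 and 2332 in the Selp-/- arrays. The arrays numbered 3 were high and the other 4, near the filter level, did not reach them. The difference was 2.50 (SE 0.18, 95% interval 2.07 to 2.92), a ratio of 5.64, with an adjusted p of 0.000383 (limma).

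Alox5ap, the membrane protein that presents arachidonate to 5-lipoxygenase, measured 11.80, 11.90 and 12.57 in the WT arrays, against 11.87, 11.92 and 12.46 in the Selp-/- arrays. Its 4 arrays numbered 1 and 2 lay between 11.80 and 11.92, and both arrays numbered 3 lay above them. The difference was 0.64 (SE 0.10), a ratio of 1.56 (limma, adjusted p = 0.00642). Without WT 3 it was 0.57 and no longer passed (limma, adjusted p = 0.0769).

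Of the enzymes that use leukotriene A4, Lta4h measured 10.79, 10.51 and 11.50 in the WT arrays, against 11.11, 10.45 and 11.78 in the Selp-/- arrays. The arrays numbered 3 were highest and those numbered 2 lowest in both genotypes. The difference of number 3 was 0.92 (SE 0.13), a ratio of 1.90 (limma, adjusted p = 0.00428). Lta4h was also the only member with an unadjusted p under 0.05 between numbers 1 and 2, at 0.48 (SE 0.15, unadjusted p = 0.0146), where 7.96% of all tested probe sets lay under that p. Its adjusted p was 0.582, and limma called 0 of the 7 members against 0.0521% of all. Neutrophil markers summed to 47526.5 and 56905.5 in the arrays numbered 1 against 19785 and 21001 in those numbered 2, and erythroid markers to 24464 and 26135.5 against 6872.5 and 7620.5. Their part in this difference was not tested.

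Ltc4s measured 8.70, 8.72 and 9.76 in the WT arrays, against 9.15, 8.92 and 9.44 in the Selp-/- arrays. WT 1 and WT 2 lay under the filter level of 8.79. Both arrays numbered 3 lay above the other 4, and above the mean of numbers 1 and 2 by 1.04 in WT and 0.40 in Selp-/- HSC. The difference over both was 0.72 (SE 0.16), a ratio of 1.65 (limma, adjusted p = 0.0238), and the F test did not call it (adjusted p = 0.0616). Its call rested on single arrays: the adjusted p (limma) was 0.217 without WT 3, where the difference was 0.40, 0.0838 without WT 2 and 0.0533 without Selp-/- 2.

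The other lipoxygenases did not share one course. Alox12, the platelet enzyme, measured 8.24, 8.11 and 9.77 in the WT arrays, against 8.23, 8.20 and 8.96 in the Selp-/- arrays, above the filter level in the arrays numbered 3 and under it in the rest. Its mean of 8.59 kept it out of the filtered fit. Without the filter its difference was 1.17 (SE 0.20), with an adjusted p of 0.0193 (limma). Alox15, the leukocyte 12/15-lipoxygenase of macrophages and eosinophils, measured 8.78, 9.13 and 8.99 in the WT arrays, against 8.72, 8.84 and 8.95 in the Selp-/- arrays. Its arrays numbered 3 lay among the others, and the difference of 0.10 had a 95% interval from -0.17 to 0.37.

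In the prostaglandin branch, Ptgs2, the inducible cyclooxygenase, measured 8.11, 8.30 and 9.31 in the WT arrays, against 8.12, 8.29 and 9.47 in the Selp-/- arrays. In the arrays numbered 1 and 2 the genotypes had nearly the same level, under the filter, and the arrays numbered 3 lay above it. Its mean of 8.60 kept it out of the filtered fit. Without the filter the difference was 1.19 (SE 0.12), a ratio of 2.28, with an adjusted p of 0.00304 (limma).

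Hpgds, the hematopoietic prostaglandin D synthase of mast cells, measured 8.82, 8.44 and 9.66 in the WT arrays, against 8.59, 8.76 and 9.49 in the Selp-/- arrays. The arrays numbered 3 were high in both genotypes, and the other 4 lay around the filter level in no order of genotype. The difference was 0.92 (SE 0.14), a ratio of 1.89 (limma, adjusted p = 0.00642). Ptges measured 9.20, 9.07 and 9.42 in the WT arrays, against 9.45, 9.61 and 9.70 in the Selp-/- arrays. The arrays numbered 3 were highest in each genotype, but WT 3 lay under all 3 Selp-/- arrays. The difference by number was 0.23 (95% interval -0.03 to 0.49, adjusted p = 0.188, limma). Without normalization it was 0.40 and passed (limma, adjusted p = 0.0306), with the median of all tested probe sets at 0.20.

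**Figure D2:**
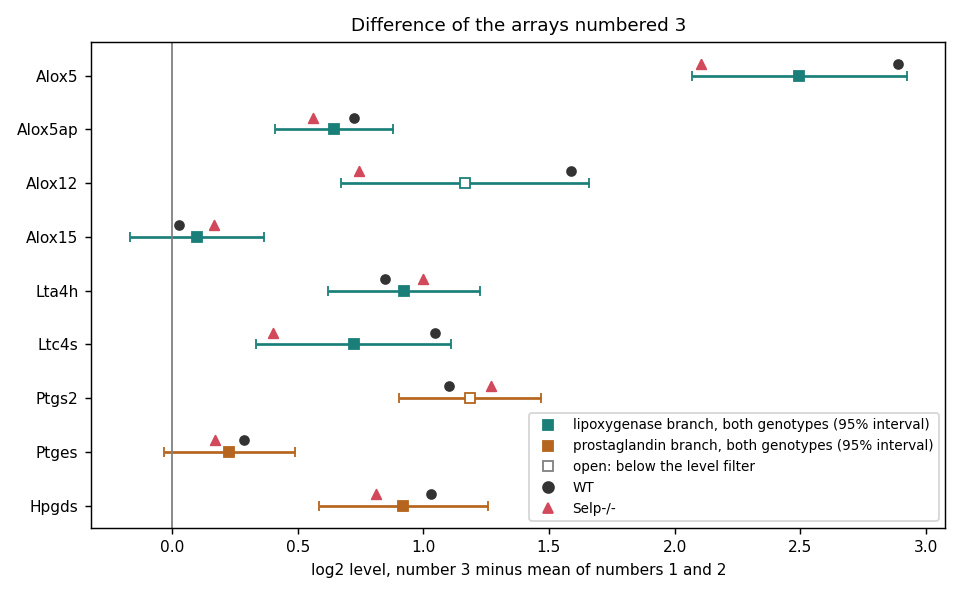
Difference in log2 level of the arrays numbered 3 from the mean of numbers 1 and 2 (horizontal axis) for each enzyme, as squares with 95% intervals over both genotypes, open where the probe set was below the filter, with WT as circles and Selp-/- as triangles above them. Alox5 is at 2.50, and the intervals of Alox15 and Ptges include 0.

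Set against each other, the branches overlapped in their differences by number. The 6 lipoxygenase probe sets ran from 0.10 to 2.50 with a mean of 1.01 and a median of 0.82. The 3 prostaglandin probe sets ran from 0.23 to 1.19 with a mean of 0.78 and a median of 0.92, so that the means and the medians put the branches in opposite orders. Over the tested probe sets alone the means were 0.98 and 0.57. The lipoxygenase mean was 1.19 in WT and 0.83 in Selp-/- HSC. The prostaglandin mean was 0.81 in WT and 0.75 in Selp-/- HSC. In each branch most members were higher in the arrays numbered 3 and 1 member, Alox15 or Ptges, had an interval that included 0. Whether the branches differ was not tested, since the members were chosen with results known.

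Markers of myeloid cells moved in the same arrays, and their part in these differences was not tested. Of 14 mast cell and basophil probe sets, 13 were higher in mean in the arrays numbered 3, with sums of 57349.5 and 76905 there against 12850 to 17063 in the other 4 arrays. Of the 8 tested ones, 7 were called higher and 1, the stem cell factor receptor Kit, which is also on the stem cell list, lower. Of all tested probe sets, 9.13% were called higher and 11.7% lower. The basophil protease Mcpt8 was 4.51 higher (SE 0.13, limma, adjusted p = 2.9e-05). Of 12 monocyte and macrophage probe sets 11 were higher, with sums of 33069 and 52427.5 against 11569 to 16659. Of 14 neutrophil probe sets 11 were higher, with sums of 76461 and 79413.5 against 19785 to 56905.5. Eosinophil markers were higher in mean for 5 of 7 (6686.5 and 7517.5 against 3491.5 to 4279) and megakaryocyte markers for 7 of 9 (19004.5 and 31831 against 7921 to 16350.5). Among tested probe sets, limma called 8 of 11 monocyte, 8 of 12 neutrophil, 3 of 4 eosinophil and 3 of 9 megakaryocyte ones higher. It called 1 neutrophil probe set lower, and 6 megakaryocyte ones were not called. Markers under the filter in mean were Il4, Il6, Cma1, Mcpt4, Tpsab1 and Ms4a2 of the mast list, Ly6g and Mmp8 of the neutrophil list, C1qa of the macrophage list and Prg3, Il5ra and Ccr3 of the eosinophil list. In RNA from bulk cells, more cells of a type and more RNA per cell cannot be told apart.

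**Figure D3:**
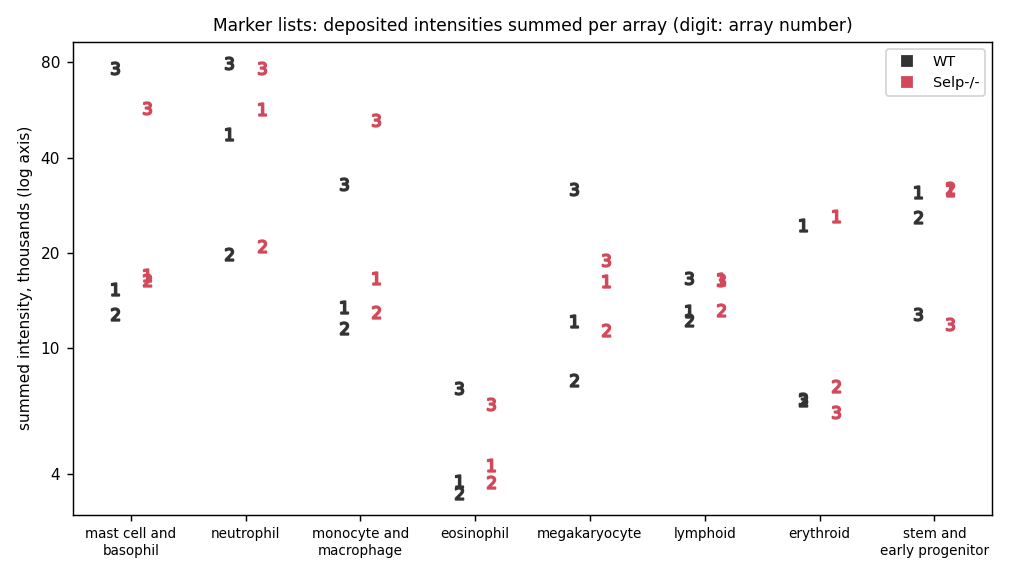
Deposited intensities summed over each cell type's marker probe sets (vertical axis, log scale) in each array, with the digit giving the array number, WT in dark grey and Selp-/- in red. The digit 3 is highest in both genotypes for the mast cell and basophil, neutrophil, monocyte, eosinophil and megakaryocyte lists, and lowest for the stem and early progenitor list.

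The genotype comparison, which asks what the loss of P-selectin changes, gave no call. Limma called 0 of the 7 tested members and 0% of all 17289 probe sets at an adjusted p of 0.05. At an unadjusted p under 0.05 there was 1 member, Ptges, where 0.706% of all tested probe sets lay under that p. With the array number as a block, limma called 0 members and 0% of all probe sets, and Ptges alone lay under an unadjusted 0.05, where 3.64% of all did. Members higher in mean in Selp-/- HSC numbered 3 of 7.

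Ptges was the member whose genotypes did not overlap, which held for 4.21% of all tested probe sets in either direction and for 2.24% with Selp-/- higher. Its mean was 9.23 ± 0.18 for WT and 9.59 ± 0.12 for Selp-/- arrays (SD, n = 3), a difference of 0.36 (SE 0.13, 95% interval 0.05 to 0.67). The adjusted p was 1 without the block and 0.983 with it (limma). It was higher in Selp-/- in all 3 pairs, by 0.26, 0.54 and 0.28, a course that 12.6% of tested probe sets shared. In the arrays numbered 1 and 2 alone the difference was 0.40. The highest WT array and the lowest Selp-/- array, 9.42 and 9.45, were close.

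The other members overlapped between genotypes. For Alox5 the difference was -0.31 (95% interval -2.49 to 1.88), and with the number as a block the interval was -0.71 to 0.10. For Alox5ap it was -0.01 (-0.62 to 0.60), and with the block -0.23 to 0.21. For Lta4h, Ltc4s and Hpgds the differences were 0.18, 0.11 and -0.02, with blocked intervals of -0.10 to 0.46, -0.25 to 0.48 and -0.34 to 0.29. Alox15 lay lower in Selp-/- in all 3 pairs, by -0.06, -0.29 and -0.04, as did Alox5, by -0.07, -0.02 and -0.83, where 11.2% of tested probe sets did. Neither passed, and the interval of Alox15 was -0.43 to 0.17. Alox12 and Ptgs2, below the filter, differed by -0.25 and 0.06.

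**Figure D4:**
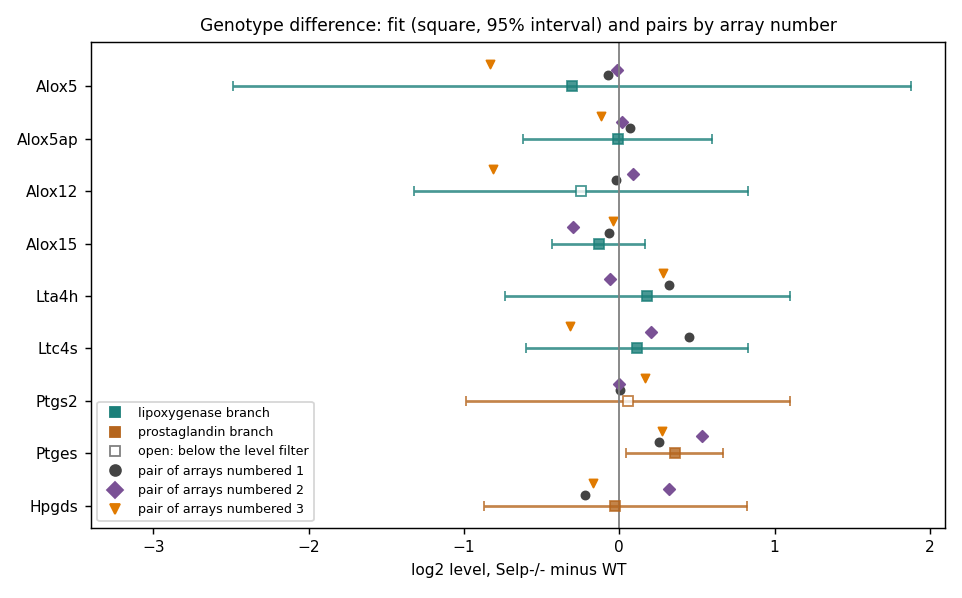
Difference in log2 level between Selp-/- and WT (horizontal axis) for each enzyme, as squares with 95% intervals from the fit without a block, open where the probe set was below the filter, with the 3 pairs of equal array number as small symbols. Ptges is the enzyme whose 3 pairs and interval all lie above 0, at 0.36 in mean, and Alox5 and Alox12 have their lowest pair in the arrays numbered 3.

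For Alox5 and Alox12 the genotypes differed more in the pair numbered 3 than in the other pairs, and for Ltc4s that pair had the opposite sign. The pair numbered 3 differed by -0.83 for Alox5, -0.81 for Alox12 and -0.32 for Ltc4s. The pairs numbered 1 and 2 differed by -0.07 and -0.02 for Alox5, -0.02 and 0.09 for Alox12, and 0.45 and 0.21 for Ltc4s. Averaged over the lipoxygenase branch, the pairs gave 0.11, -0.01 and -0.31, and over the prostaglandin branch 0.01, 0.28 and 0.09. A test of whether the difference of number 3 varied with genotype called 0 of the 7 tested members, against 0.0521% of all probe sets. At an unadjusted p under 0.05 it gave 2, Alox5 (-0.79, SE 0.31) and Ltc4s (-0.65, SE 0.25), where 4.15% of all did. Alox12, below the filter, gave -0.85 (SE 0.25, unadjusted p = 0.0120, limma) in the fit without the filter and was not called there. The sums of mast cell and megakaryocyte markers were also lower in Selp-/- 3 than in WT 3, at 57349.5 against 76905 and 19004.5 against 31831, and those of monocyte markers higher, at 52427.5 against 33069. Their part was not tested.

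Around the members, genes of arachidonate supply and of its products' receptors were counted from lists chosen by function. Each count stands beside the 9.13% of all tested probe sets called higher in the arrays numbered 3 and the 11.7% called lower, and beside their median of -0.013. Of 14 tested probe sets for release and return of arachidonate, 7 were higher in the arrays numbered 3, 0 lower and 7 not called, with a median of 0.42. Pla2g7, which breaks down platelet-activating factor, was 2.96 higher (SE 0.23, adjusted p = 0.000521, limma). Lpcat2, which makes that lipid, was 1.18 higher (SE 0.16). Of the 7 called higher, Pla2g7 and Mgll passed the filter only through the arrays numbered 3. Their means over the other arrays lay under the filter level. Levels there ran from 8.01 to 8.17 for Pla2g7 and from 8.56 to 8.98 for Mgll. The count of 7 leans in part on that selection. Pla2g4a, the cytosolic phospholipase that supplies both branches, differed by -0.03 (SE 0.11) and was not called.

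Of 8 tested probe sets for other lipoxygenases and leukotriene C4 handling, with Gpx4 on 2 of them, 4 were higher and 1 lower, with a median of 0.40. Alox8 was 1.59 higher (SE 0.15), and Mgst2, another enzyme able to make leukotriene C4, 1.25 higher (SE 0.13). Alox8 passed the filter only through the arrays numbered 3. In the other arrays it ran from 8.38 to 8.72, under the filter level. Both probe sets of Gpx4 were among the 4 higher, so the count of 4 leans on few genes. Ggt5, which trims leukotriene C4 to D4, fell by 0.84 (SE 0.11, adjusted p = 0.00407, limma). Of 14 tested probe sets of other prostanoid enzymes and carriers, with Ptges3 on 3 of them, 1 was higher and 2 lower, with a median of 0.10, which is near the shares over all tested probe sets (9.13% and 11.7%) and so no result about this list. Ptgr1, which inactivates prostaglandins and leukotriene B4, was 0.97 higher (SE 0.19). The prostaglandin carrier Slco2a1 fell by 0.71 (SE 0.13) and the carbonyl reductase Cbr1 by 0.48 (SE 0.12).

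Of 11 tested receptor probe sets, with Gpr31b on 2 of them, 4 were higher and 0 lower, with a median of 0.29, against 9.13% and 11.7% over all. With median centring 1 receptor probe set was called lower. Ptgir, the prostacyclin receptor, was 1.50 higher (SE 0.13, adjusted p = 0.000696, limma) and Ptafr, the receptor of platelet-activating factor, 0.96 higher (SE 0.11). The leukotriene receptors Ltb4r1 and Cysltr1 were 0.67 and 0.50 higher (SE 0.16 and 0.12). Cysltr1 passed the filter only through the arrays numbered 3. Its levels in the other arrays ran from 8.53 to 8.80, with a mean under the filter level. The count of 4 higher leans in part on that selection. Cysltr2, the other cysteinyl leukotriene receptor, moved the opposite way, with a mean level under the filter. It measured 8.67, 9.39 and 6.96 in the WT arrays, against 8.75, 9.68 and 6.99 in the Selp-/- arrays, so that both arrays numbered 3 were lowest. Cysltr2, Ltb4r1, Cysltr1 and Pla2g4a were named after their values were seen.

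Of 5 tested probe sets of the P450 and epoxide hydrolase list, all of P450 enzymes, 2 were higher and 2 lower. The epoxide hydrolases Ephx1 and Ephx2 lay under the filter in mean and were not tested. Cyp4f18, of a family that inactivates leukotriene B4, was 2.22 higher (SE 0.27) and Cyp4f16 0.47 higher (SE 0.13). Cyp2j9 and Cyp2j6, of a family that makes epoxides from arachidonate, fell by 1.87 (SE 0.12) and 1.61 (SE 0.15). Of the probe sets in these 5 lists, 0 were called between genotypes by limma, with or without the block.

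**Figure D5:**
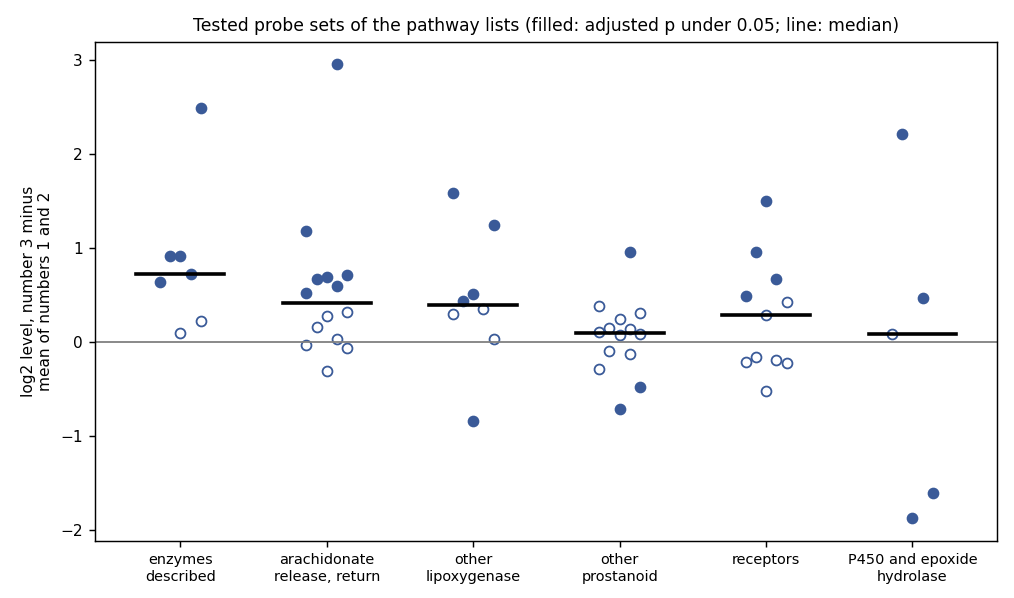
Difference in log2 level of the arrays numbered 3 from the mean of numbers 1 and 2 (vertical axis) for each tested probe set of the enzymes described and of 5 pathway lists (horizontal axis), filled where called by limma, with the median as a line. The release list reaches 2.96 with Pla2g7, and the P450 list spans -1.87 to 2.22.

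The profiles nearest to each member called by the F test were found by the root mean square difference of log2 levels centred on their own mean over the 6 arrays. Alox5 lay nearest to Pilrb1, Pilra and Tarm1, at 0.13, 0.15 and 0.15. Alox5ap lay nearest to Dock5, Efhd2 and Slc16a3, at 0.025, 0.036 and 0.039. Lta4h lay nearest to Tmem97, Mpc1 and Slc31a1, at 0.087, 0.088 and 0.094, and Hpgds to Serpinb1a, Tspo and Myo10, at 0.068, 0.091 and 0.093. With 6 arrays and a large share of probe sets that differ by number, a small distance is a description only. Pilrb1 measured 8.59, 8.43 and 11.18 in the WT arrays, against 8.36, 8.02 and 10.42 in the Selp-/- arrays. Like Alox5 it was higher in WT 3 than in Selp-/- 3, which follows from its selection by these same 6 levels.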

How the data were processed

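Total RNA was amplified, labelled with biotin and hybridized in 1 colour, per the labels' protocols. The authors deposited linear intensities of 28815 probe sets per array. MAS5 is named without a version, per the submitters' processing notes, and its scale factor, if any, stays unknown. From these the background was corrected with normexp (offset 50), and log2 values were quantile normalized in limma 3.58.1 under R 4.3.3. A filter at the 40th percentile of mean level (8.79) kept 17289 probe sets. Fits used lmFit and eBayes with a variance trend and two-sided tests, with Benjamini-Hochberg adjustment over all tested probe sets and a threshold of 0.05. The scripts were tested on simulated data. Arrays give no depth, and their number limits the precision.

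The main fit had genotype alone. Fits for array number had genotype and number. The test of whether the difference of number 3 varied with genotype used genotype, number 3 or not, and their product. It did not separate numbers 1 and 2, so their spread within each genotype entered its error. The numbers from the labels' titles were taken to pair the arrays. Deviations from the genotype means correlated at 0.43, 0.53 and 0.81 between arrays of the same number. Each mean includes the array numbered 3, so a shift shared by those arrays also raises the values for numbers 1 and 2. Arrays of unlike number were not compared, so these values cannot show that numbers 1 and 2 are matched between genotypes. Names came from the platform annotation, updated through RefSeq identifiers; 21780 probe sets had 1 symbol, 1605 several and 5430 none. The members and lists were chosen with earlier results of these data known. Named are all members, up to 2 genes per direction and pathway list with the largest called difference by number, and the 3 nearest profiles of members called by the F test. Genes of the pathway lists that were called higher and passed the filter only through the arrays numbered 3 are named too. Of the cell type lists, Mcpt8, Hlf, Kit and the markers under the filter are named. The lymphoid and erythroid lists were summed too: 3 of 10 and 2 of 7 probe sets were higher in the arrays numbered 3.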

Additional observations from a re-analysis of the deposited data

How the results depend on the processing

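The count of 0 members called between genotypes held in all 13 alternatives run, the replicate block among them (0), and so did 0 members for the interaction in the 9 that could be fitted; leaving out WT 3 or Selp-/- 3 leaves that term without a value. The 5 members called in the arrays numbered 3 became 3 with the filter at the 60th percentile. Only Alox5, Alox5ap and Lta4h were tested there, and all 3 were called. The count ran from 3 to 5 when 1 array was left out (3 without WT 3). The 4 members of the F test ran from 2 to 5 by array left out, with 2 without WT 3. The F test called 6 without normalization. The contrast of numbers 1 and 2 called 1 member without normalization and 0 by array left out. Without normalization the median of all tested probe sets lay 0.20 higher in the arrays numbered 3, and 83.6% of calls were higher against 43.8% as reported. The F test then called 5901 of all tested probe sets against 2217. For Ptges by number the adjusted p (limma) ran from 0.0306 to 0.642 over the alternatives. The 5 pathway lists kept the direction of every called probe set under the 3 other scalings, with 7 to 9 release genes higher. Without normalization the other prostanoid genes went from 1 higher and 2 lower to 4 higher and 0 lower, receptors from 4 to 6 higher, and other lipoxygenase genes from 4 to 6 higher with 1 lower as before. With median centring receptors had 4 higher and 1 lower.

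The prostaglandin mean in the arrays numbered 3 was 0.61 with median centring, 0.84 with an offset of 16, and 0.73 to 0.84 by array left out; the lipoxygenase mean was 0.83 to 1.19. The genotype means ran from -0.34 to 0.33 (lipoxygenase) and -0.12 to 0.40 (prostaglandin) by array left out, and the cause was not tested. Uncalled genotype differences turned sign for Alox5ap, Hpgds, Alox5, Lta4h and Ltc4s. That of Alox5ap was 0.13 without normalization, 0.051 with median centring, 0.046 in the arrays numbered 1 and 2, and -0.20 to 0.24 by array left out. That of Hpgds was 0.047 without normalization and -0.29 to 0.32 by array left out. By array left out Alox5 ran from -1.0 to 0.66, Lta4h from -0.15 to 0.52, Ltc4s from -0.063 to 0.46 and Alox15 from -0.22 to -0.050. By number Alox15 ran from 0.030 to 0.17, never called. Leaving out 1 array breaks a pair, so these values mix genotype with number. The replicate block changed no call. Levels near the filter limit what the arrays can show. This holds for Alox12, Ptgs2, Hpgds and Alox15, and in the arrays numbered 1 and 2 for Alox5 and Ltc4s.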
